A study of Homo sapiens with 12 samples.

Results

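EMC10, the gene that the study calls hHSS1, and the genes of the other subunits of the endoplasmic reticulum (ER) membrane complex were followed array by array in A172 cells, a line established from a human glioblastoma. The members were the genes EMC1, EMC2, EMC3, EMC4, MMGT1 (which encodes subunit 5), EMC6, EMC7, EMC8, EMC9 and EMC10. They were chosen by the gene symbol that the platform annotation gives to a probe set, the group of probes read as 1 value. These are 10 of the 18417 genes measured, and each of the 10 had 1 probe set.

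Total RNA was hybridised to 12 GeneChip Human Gene 1.0 ST arrays, 3 for each of 4 groups. Wild-type A172 cells carried no vector. The mock line was A172 stably transfected with the empty vector. Clones 7 and 8 were A172 cells stably transfected with hHSS1, which the study's methods describe as a pcDNA3.1 construct with a histidine tag at the C-terminal end, and stable clones were kept in G-418. The cells of all groups were harvested after 4 days. The mock cells are 1 line and each clone is 1 line, so that p-values measure the spread between cultures of these lines and not between independently made lines.

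The ER membrane complex is a machine of the ER membrane that places transmembrane segments of newly made proteins into the lipid bilayer, among them tail-anchored proteins and the first segments of many multipass receptors. EMC3 and EMC6 form much of its insertase core inside the membrane, EMC2 and the paralogs EMC8 and EMC9 cap it on the cytosolic side, and EMC1, EMC7 and EMC10 form most of its part in the ER lumen. EMC10 is also made as a form that the cell secretes.

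The window of 250 bases before the start of EMC10 is shown since the added copy has the vector's own promoter, so that the window belongs to the native gene alone, which is what wild-type and mock cells have. It lies at chr19:50476257-50476506 on the plus strand (RefSeq, GRCh38.p14). Capitals mark TGACGT or its reverse complement, the core of the cyclic AMP response element.

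EMC10: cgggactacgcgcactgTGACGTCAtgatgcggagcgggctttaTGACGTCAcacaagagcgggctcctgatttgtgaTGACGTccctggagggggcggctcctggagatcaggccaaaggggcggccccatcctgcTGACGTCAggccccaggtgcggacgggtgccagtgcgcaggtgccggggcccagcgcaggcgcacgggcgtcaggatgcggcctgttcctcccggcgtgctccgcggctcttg

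The window held the full element TGACGTCA at 3 places, and the core once more on its own. Counted over both strands, and with the overlap inside each full element, these are 7 matches of the core, whose first bases lie at -233, -231, -206, -204, -172, -113 and -111 from the start. The full element was found in 1.77% of the 27305 windows of this length in the table. A window with 3 or more of them occurred once, and that window is the one of EMC10. The core was found in 7.42% of windows, and 3 or more cores in 0.209%. These letters were chosen for the search after the window had been read, and a match is not shown to be a bound site.

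Windows were at hand for 8 of the 10 members, namely EMC1, EMC3, EMC4, EMC6, EMC7, EMC8, EMC9 and EMC10. Of these, EMC4 and EMC10 held the core of the cyclic AMP response element, and EMC4 held it once. The GC box, GGGCGG, was in 6 of the 8 windows, against 42.3% of all windows. CCAAT was in 5 of the 8 windows, against 33.0% of all, and EMC10 was not among them. CACGTG, the E box, was in the window of EMC9 alone of the 8 and in 6.49% of all. The ER stress element, CCAAT and CCACG with any 9 bases between them, was in 0 of the 8 windows and in 0.0806% of all, and TATAAA was in 0 of the 8 and in 11.1% of all. The EMC10 window had a GC content of 68.8%, with a median of 58.0% over all windows.

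EMC10 was lowest in mock cells, higher in wild-type cells and highest in the clones, whose arrays overlapped. The values are deposited log2 expression levels, so that a difference of 1 is a doubling. The probe set (8030706, a gene of chromosome 19) gives 1 value for the native transcript and that of the vector. Which of its probes match the added copy is not known, so that these transcripts cannot be separated. In mock cells, the log2 levels of EMC10 were 9.20, 9.33 and 9.51. In wild-type cells they were 11.13, 10.43 and 10.69. In clone 7 they were 11.57, 11.72 and 12.30, and in clone 8 they were 12.13, 12.18 and 11.75. Every mock array lay under every wild-type array, every wild-type array lay under every clone array, and the arrays of the clones overlapped. The overlap came from replicate 3 of each clone. Replicates 1 and 2 of clone 7 and replicate 3 of clone 8 lay at 11.57 to 11.75. Replicates 1 and 2 of clone 8 and replicate 3 of clone 7 lay at 12.13 to 12.30. Why the replicate 3 arrays lay with the other clone was not tested.

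**Figure D1:**
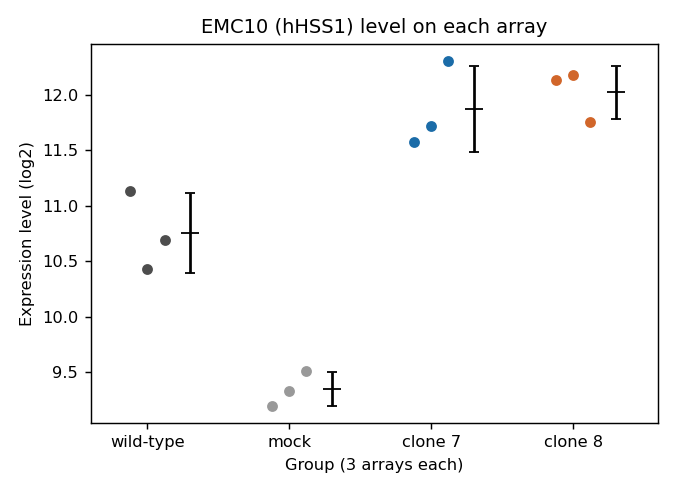
Log2 level of EMC10 on each of the 12 arrays by group, with the mean and SD over 3 arrays as a bar beside the points (y axis, log2 expression level). The mock arrays lie between 9.20 and 9.51, the wild-type arrays between 10.43 and 11.13, and the 6 clone arrays between 11.57 and 12.30.

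Against mock, EMC10 was 6.04-fold higher in the clones (log2 2.59 ± 0.18 SE, 95% interval 2.21 to 2.98, 6 arrays against 3, limma adjusted p = 7.82e-06). Clone 7 was 5.73-fold and clone 8 was 6.36-fold above mock (limma adjusted p = 5.72e-05 and 3.79e-05). No gene rose more than EMC10 in the clones, and by size of the difference in either direction it was 2nd of 18417. The clones differed from each other by 0.15 ± 0.20 on the log2 scale (95% interval -0.29 to 0.59, limma adjusted p = 0.778). This test cannot show that the clones are alike, since replicate 3 of each clone lay with arrays of the other clone.

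The native gene alone is compared between mock and wild-type cells. EMC10 fell 2.65-fold in mock (log2 -1.40 ± 0.20 SE, 95% interval -1.85 to -0.96, limma adjusted p = 0.00285), which was the 10th largest fall among 18417 genes. The lists of marker genes for other cell types were read on the same arrays. The summed log2 level of 5 epithelial markers was 50.63 to 50.76 in wild-type and 51.40 to 51.77 in mock arrays. The other summed lists overlapped between these groups, or in the neuronal list lay at 33.08 to 33.80 in wild-type and 32.54 to 32.93 in mock. List members did not move together. Of the neuronal markers, STMN2 had means of 8.38 in wild-type and 7.59 in mock, RBFOX3 had 8.76 in both, and SNAP25 and SYN1 were higher in mock. Of the epithelial markers, EPCAM was lower in mock (7.62 against 7.85) and the others were higher. The part of these markers in the fall of EMC10 was not tested. Since the cultures were read in bulk, a change in the share of cells that use the gene and a change in the RNA per cell cannot be told apart.

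Against wild-type cells, the rise of EMC10 in the clones was 2.28-fold (log2 1.19 ± 0.18 SE, 95% interval 0.81 to 1.57, limma adjusted p = 0.0013). Clone 7 lay 2.17-fold and clone 8 lay 2.40-fold above wild-type (limma adjusted p = 0.00813 and 0.00295). In the order clone 8, clone 7, wild-type and mock, each step passed the test except that between the clones.

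EMC10 also varied more between arrays of a group than most genes. Its SD within groups was 0.30 on the log2 scale, larger than that of 97.6% of genes, while the median gene had 0.11. The SD was 0.39 in clone 7, 0.36 in wild-type, 0.24 in clone 8 and 0.15 in mock cells (n = 3 each). In each clone, replicate 3 lay nearer to replicates 1 and 2 of the other clone, at 12.30 in clone 7 and 11.75 in clone 8. The part of these arrays in the SDs of the clones was not tested. Among the other subunits, the SD within groups ran from 0.04 for EMC4 to 0.15 for EMC6.

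None of the other 9 subunit genes passed the test between both clones and mock (limma adjusted p under 0.05), where 6.38% of all genes did, and at an unadjusted p under 0.05 there was 1 of the 9, EMC6, beside 20.0% of all genes. Their differences ran from -0.32 for EMC6 to 0.04 for EMC2 on the log2 scale. The median of the 9 was -0.03 and that of all genes was 0.01, with a 5th percentile of -0.26 and a 95th of 0.24. The widest 95% intervals reached from -0.53 to 0.20, which allow ratios of clones to mock between 0.693 and 1.15. The mean log2 level of the 9 genes was 10.54 ± 0.07 in mock, 10.52 ± 0.02 in clone 7, 10.43 ± 0.08 in clone 8 and 10.47 ± 0.05 in wild-type (SD, n = 3 each). The array values of this mean overlapped between mock and each of the other groups.

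**Figure D2:**
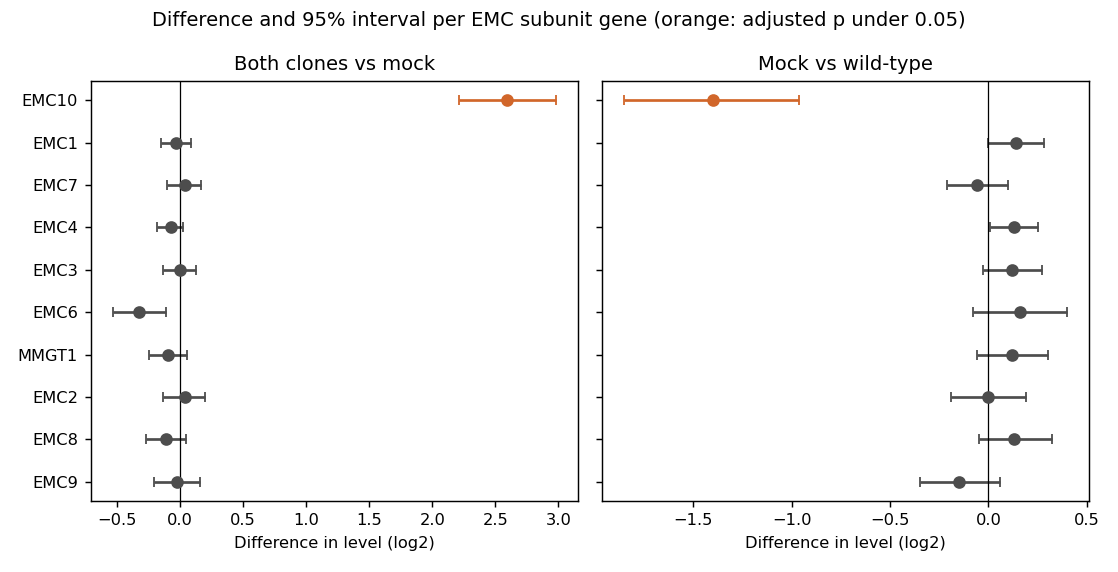
Difference in log2 level (x axis) with its 95% interval from limma for each of the 10 subunit genes, between both clones and mock (left) and between mock and wild-type (right). EMC10 stands apart at 2.59 and -1.40, and no other subunit gene passed the test in either comparison.

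EMC3 and EMC6 share the insertase core. In EMC3 the log2 levels were 10.80, 10.81 and 10.84 in wild-type, 10.91, 11.02 and 10.87 in mock, 10.95, 10.97 and 11.02 in clone 7, and 10.75, 10.95 and 10.98 in clone 8. Its wild-type arrays lay under those of mock and clone 7, while clone 8 reached to both sides of them. The difference of EMC3 between both clones and mock was 0.00 (log2, 95% interval -0.13 to 0.13).

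EMC6 had the largest difference among the other subunits. Its log2 levels were 9.39, 9.47 and 9.52 in wild-type and 9.70, 9.66 and 9.51 in mock. They were 9.50, 9.48 and 9.27 in clone 7 and 8.98, 9.10 and 9.46 in clone 8. All 6 clone arrays lay under the mock arrays, as was so for 14.2% of all genes in either direction, and clone 8 had both the lowest values and the widest spread of the gene. Replicate 3 of clone 8, at 9.46, lay beside replicates 1 and 2 of clone 7, at 9.50 and 9.48, and away from its own group. The cause of this was not tested. Clone 8 lay 1.36-fold under mock (log2 -0.44 ± 0.11 SE, 95% interval -0.68 to -0.20, limma adjusted p = 0.0417), where 5.09% of all genes passed. Clone 7 lay -0.20 from mock and did not pass (limma adjusted p = 0.449). The clones did not differ in EMC6 by the test (log2 -0.24, limma adjusted p = 0.62), nor did clone 8 and wild-type (log2 -0.28, limma adjusted p = 0.13).

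The EMC6 call in clone 8 was kept under 9 of 21 alternative settings, with differences of -0.58 to -0.34 and limma adjusted p between 0.00397 and 0.164. It was lost on leaving out any 1 of the wild-type or mock arrays, clone 7 replicate 1 or 2, or clone 8 replicate 1 (log2 -0.34). The clone 8 arrays also lay far from their group's mean over all probe sets, with root mean square deviations of 0.167, 0.192 and 0.203. The other 9 arrays had 0.0953 to 0.174, and the highest of these was replicate 3 of clone 7. Deviations were in part shared between the clones, as for replicate 1 of clone 7 with replicate 3 of clone 8 (correlation over all genes 0.734). The part of these deviations in the EMC6 value was not tested.

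EMC4 and MMGT1, small membrane subunits beside that core, did not pass in any comparison. EMC4 was the steadiest member, with log2 levels of 12.34, 12.34 and 12.37 in wild-type, 12.49, 12.52 and 12.43 in mock, 12.41, 12.42 and 12.47 in clone 7, and 12.39, 12.42 and 12.30 in clone 8. Its mock arrays all lay above its wild-type arrays. The difference between mock and wild-type was 0.13 ± 0.06 SE (log2, limma adjusted p = 0.366), and that between both clones and mock was -0.07 (95% interval -0.18 to 0.03). MMGT1 lay between 9.94 and 10.25 on all arrays, with wild-type and clone 8 each spanning most of that range. Its difference between both clones and mock was -0.09 (log2, 95% interval -0.24 to 0.06).

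EMC1 and EMC7 have large parts in the lumen, next to EMC10. EMC1 had log2 levels of 10.80 to 10.95 in wild-type, 10.94 to 11.09 in mock, 10.97 to 11.05 in clone 7 and 10.93 to 11.06 in clone 8. EMC7 had levels of 11.41 to 11.58 in wild-type, 11.41 to 11.45 in mock, 11.46 to 11.64 in clone 7 and 11.29 to 11.48 in clone 8. Both genes stayed within a narrow range in which most groups overlapped. Between both clones and mock, EMC1 differed by -0.03 on the log2 scale (95% interval -0.15 to 0.09) and EMC7 by 0.04 (95% interval -0.10 to 0.17).

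The cytosolic members were EMC2, the scaffold of this side, and the paralogs EMC8 and EMC9, of which a complex holds 1. EMC2 had log2 levels of 10.22, 10.18 and 10.08 in mock, 10.26, 10.31 and 10.30 in clone 7, and 9.96, 10.33 and 10.01 in clone 8. Clone 7 lay above mock and clone 8 lay on both sides of it, so that the mean of both clones differed from mock by 0.04 (log2, 95% interval -0.13 to 0.20). EMC8 differed by -0.11 on the log2 scale (95% interval -0.27 to 0.05) and EMC9 by -0.02 (95% interval -0.20 to 0.16). EMC9 was the single member with its highest mean in wild-type cells, at 8.90 ± 0.08 (SD, n = 3), against 8.76 ± 0.18 in mock.

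**Figure D3:**
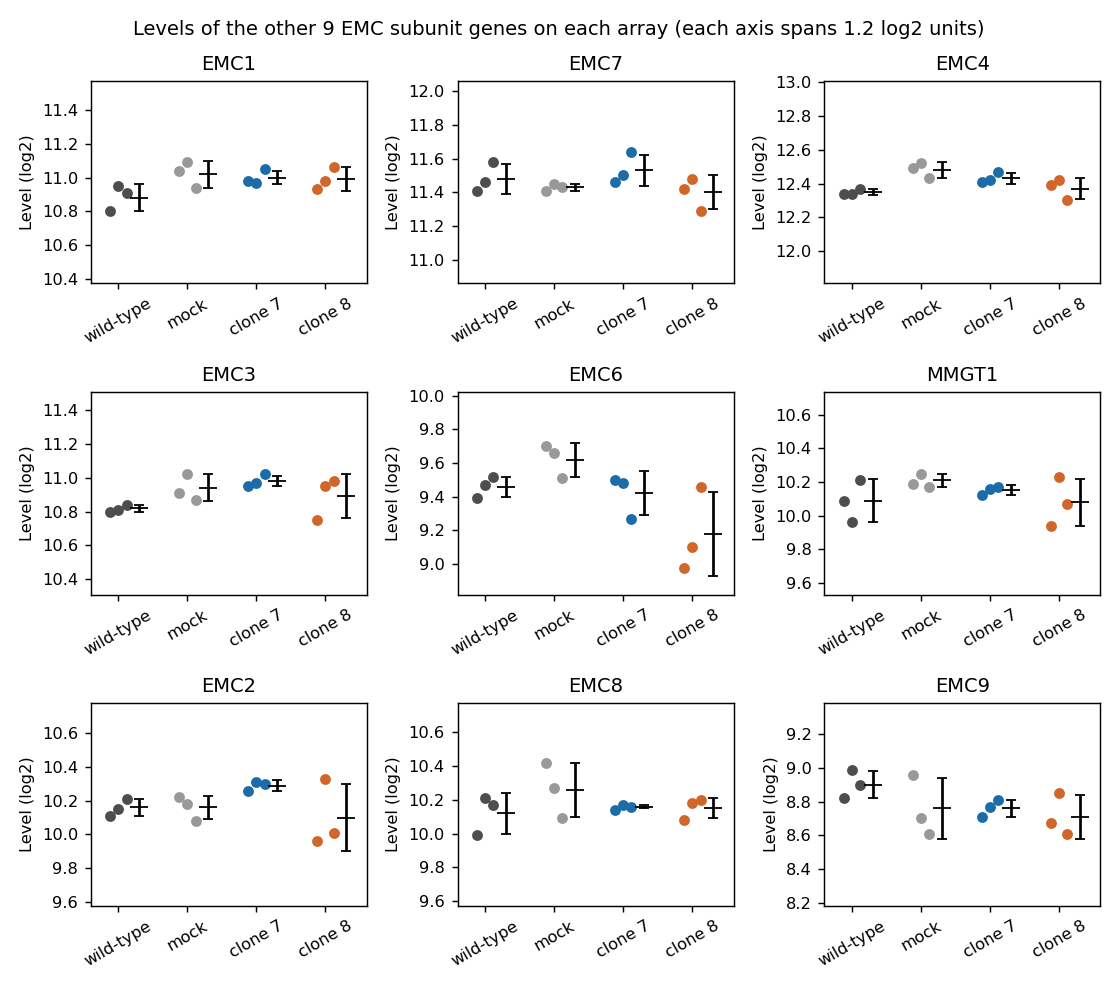
Log2 level of the other 9 subunit genes on each array (y axes, each spanning 1.2 log2 units) by group, with the mean and SD over 3 arrays as a bar. The groups overlap in most panels, and the mock and clone arrays of EMC6 are apart, from 9.51 to 9.70 in mock and from 8.98 to 9.50 in the clones.

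In the remaining comparisons, none of the other 9 subunits passed. Between mock and wild-type, where 2.24% of all genes passed, the 9 ran from -0.15 for EMC9 to 0.16 for EMC6, with a median of 0.12 (all genes 0.02), and 1 of them, EMC4, had an unadjusted p under 0.05, beside 12.1% of all genes. Between both clones and wild-type, where 9.95% of genes passed, they ran from -0.17 for EMC9 to 0.12 for EMC3, with a median of 0.03 (all genes 0.03) and none at an unadjusted p under 0.05, beside 25.1% of all genes. Between clone 7 and mock, where 3.14% of genes passed, the median was -0.03 (all genes -0.01), again with none at an unadjusted p under 0.05, beside 14.7% of all genes. Clone 7 against wild-type (4.98% of genes passed) and clone 8 against wild-type (8.81%) each gave 1 at an unadjusted p under 0.05, EMC3 at 0.16 and EMC6 at -0.28, beside 17.9% and 27.6% of all genes at that limit. Between the clones, 0.0% of genes passed by limma, 1328 genes (7.21%) had an unadjusted p under 0.05, and 0 of the 9 were among them. Over all genes, the deviations of replicate 3 of clone 7 and replicate 3 of clone 8 from their group means were opposed (correlation -0.832). Each went with the remaining arrays of the other clone. The part of this in the counts between the clones was not tested. All 9 had a lower mean in clone 8 than in clone 7 and than in mock, with medians of -0.07 (all genes 0.01) and -0.06 (all genes 0.02). Several of these differences were near 0, and with quantile normalization or single arrays left out the sign turned for EMC1 and EMC8 against clone 7 and for EMC1, EMC2, EMC3, EMC7 and EMC9 against mock.

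For each of these 9 genes, no pair of groups next to each other in the order of levels differed by the test. Mock had the highest mean in EMC1, EMC4, EMC6, MMGT1 and EMC8, and clone 7 had it in EMC2, EMC3 and EMC7. Arrays that do not overlap between mock and wild-type were seen for EMC3 and EMC4, 2 of the 9, beside 28.9% of all genes. Clone 7 did not overlap with mock in 4 of the 9 (EMC2, EMC6, EMC7 and MMGT1) beside 25.5% of genes, nor with wild-type in 5 (EMC1, EMC2, EMC3, EMC4 and EMC9) beside 25.9%. Clone 8 did not overlap with mock in EMC4 and EMC6, beside 23.2% of genes. Between clone 8 and wild-type (24.4% of genes), both clones and wild-type (15.3%) and the clones themselves (6.9%), arrays overlapped in all 9. Only for EMC10 and, from clone 8 to mock, for EMC6 did such a separation pass the limma test.

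The pathway around the complex was read from lists of 56 genes, of which 48 were measured. The lists were chosen with earlier results of these data known. Between both clones and mock, 4 of the 48 passed, 2 higher and 2 lower, beside 6.38% of all genes, and 9 had an unadjusted p under 0.05, beside 20.0% of all genes. None of the 4 reached 1.5-fold, as 0.728% of all genes did, and the median of the 48 was -0.03 (all genes 0.01).

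GET1 encodes a part of the receptor that inserts tail-anchored proteins into the ER membrane, and its protein belongs to the same family as EMC3. Its log2 levels were 11.10, 10.99 and 11.22 in wild-type, 10.80, 10.79 and 10.81 in mock, 11.21, 11.10 and 11.22 in clone 7, and 11.02, 11.18 and 11.21 in clone 8. The mock arrays lay under all others, and the clones overlapped with wild-type. With both clones set against mock, GET1 was 1.28-fold higher (log2 0.36 ± 0.06 SE, limma adjusted p = 0.00605), and mock lay -0.30 from wild-type without passing (limma adjusted p = 0.055). A pseudogene, GET1P1, is listed in RefSeq, so that the value is uncertain where probes match both.

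TMEM147, of the translocon for multipass proteins, had log2 levels of 12.76, 12.80 and 12.80 in wild-type, 12.64, 12.64 and 12.56 in mock, 12.92, 12.91 and 12.92 in clone 7, and 12.91, 12.87 and 12.95 in clone 8. No group overlapped with another except the clones. Such a separation was seen for 14.2% of all genes between both clones and mock, 28.9% between mock and wild-type and 15.3% between both clones and wild-type. Clones exceeded mock by 1.23-fold (log2 0.30 ± 0.05 SE, limma adjusted p = 0.00257). Mock lay -0.18 from wild-type (limma adjusted p = 0.129) and both clones lay 0.12 from it (limma adjusted p = 0.11), and neither difference passed. GET1 and TMEM147 passed under all 21 alternative settings in this comparison.

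The genes lower in the clones than in mock were SRP9, of the signal recognition particle, and SOAT1, a multipass enzyme that esterifies cholesterol and one of the membrane proteins reported to need the complex. SRP9 had log2 levels of 12.95, 12.99 and 12.96 in mock, 12.70, 12.70 and 12.82 in clone 7, and 12.70, 12.77 and 12.57 in clone 8, and it was 1.19-fold lower in the clones (limma adjusted p = 0.0271). These values are from probe set 7935002, kept for its higher mean. Its number lies between those of ADRB1 (7930627, chromosome 10) and SPCS2 (7942553, chromosome 11), while SRP9 is a gene of chromosome 1. The other probe set, 7910099, has a number between those of SOAT1 and EMC1, both of chromosome 1. That set differed by -0.27 and missed the threshold over all probe sets (limma adjusted p = 0.0643). RefSeq lists a pseudogene, SRP9P1. Which of the probe sets reads SRP9 itself was not tested, so that the SRP9 call is uncertain. SOAT1 had log2 levels of 11.77, 11.83 and 11.77 in mock, 11.31, 11.29 and 11.59 in clone 7, and 11.45, 11.55 and 11.16 in clone 8, and it was 1.32-fold lower in the clones (limma adjusted p = 0.0239). Wild-type cells had 12.89, 12.75 and 12.92 for SRP9 and 11.41, 11.44 and 11.60 for SOAT1, and overlapped with the clones in both. Neither gene passed between both clones and wild-type (SRP9 at -0.14, limma adjusted p = 0.163, and SOAT1 at -0.09, limma adjusted p = 0.557), and SOAT1 lay 0.31 higher in mock than in wild-type without passing (limma adjusted p = 0.213). In both genes the clone arrays lay under the mock arrays, and each call was kept under 13 of 21 settings. Leaving out any 1 mock array or clone 7 replicate 1 or 2 ended it, and the limma adjusted p reached 0.142 for SRP9 and 0.126 for SOAT1, both without mock replicate 2.

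By list, between both clones and mock, 1 of 8 genes passed for the signal recognition particle and its receptor and 1 of 6 for tail-anchored protein insertion. There was 1 of 5 for the multipass translocon and 1 of 3 for the reported membrane proteins that need the complex, beside 6.38% of all genes. Of these 3, ABCA3 lay -0.45 from mock (limma adjusted p = 0.0574) and -0.40 from wild-type (limma adjusted p = 0.0677), passing in neither. ADRB1 lay 0.09 from mock. None passed of the 10 genes of the Sec61 translocon, the 11 of the oligosaccharyltransferase, which adds sugar chains, and the 5 of the signal peptidase. The smallest p in these lists belonged to SEC61A2 (log2 -0.22, limma adjusted p = 0.0999), STT3A (log2 -0.17, limma adjusted p = 0.06) and SPCS3 (log2 -0.24, limma adjusted p = 0.455).

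**Figure D4:**
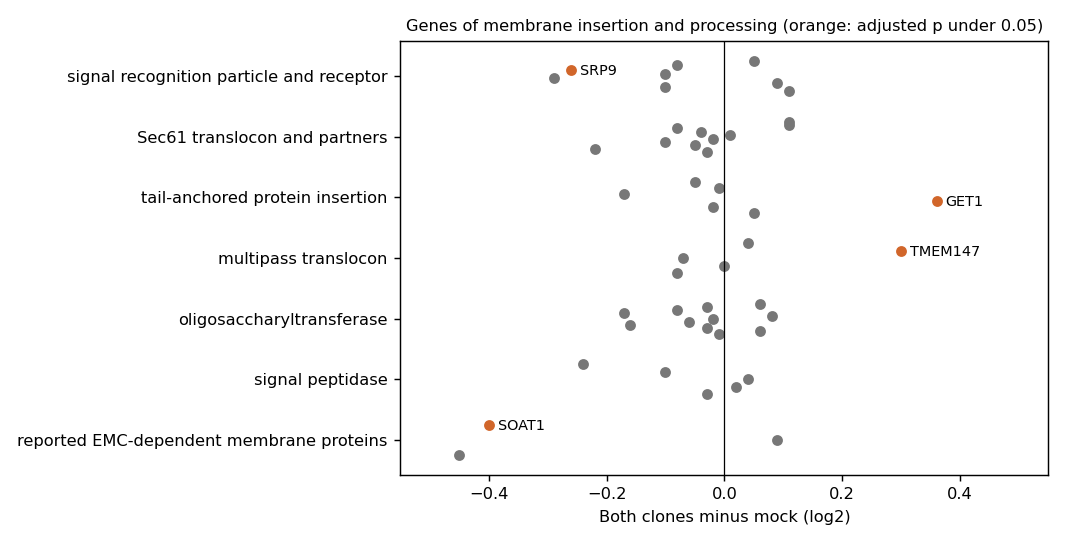
Difference between both clones and mock in log2 level (x axis) of each of the 48 measured genes of membrane insertion and processing, by list (y axis, with the points of a list spread vertically for legibility). The 4 genes that passed are labelled and lie between -0.40 and 0.36.

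Between mock and wild-type, 0 of the 48 passed by limma, beside 2.24% of all genes, and 5 had an unadjusted p under 0.05, beside 12.1%. Between both clones and wild-type 3 passed, TRAM1 (log2 0.27 ± 0.05 SE, limma adjusted p = 0.00717) and RPN2 (log2 0.17 ± 0.05, limma adjusted p = 0.0399) higher and SEC61A2 (log2 -0.30 ± 0.07, limma adjusted p = 0.0213) lower, beside 9.95% of all genes. TRAM1 passed under all 21 settings, SEC61A2 under 18 (not without any 1 wild-type array, with limma adjusted p up to 0.127) and RPN2 under 7 (limma adjusted p up to 0.145). TRAM1 assists the Sec61 channel, RPN2 is a subunit of the oligosaccharyltransferase, and SEC61A2 encodes a form of the channel itself.

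The genes most like EMC10 in pattern were found by centring each gene on its mean over the 12 arrays and taking the root mean square difference from EMC10. The nearest were ZNF22 (0.56), a zinc finger gene, JAM2 (0.56), which encodes a junctional adhesion molecule, AMTN (0.60), a protein of tooth enamel matrix, FAM133A (0.60) and EDIL3 (0.61), a secreted protein that binds integrins. A gene with no change at all would lie at 1.10, the median gene lay at 1.10, and the nearest other subunit, EMC7, at 1.08. The mean log2 level of JAM2 was 9.32 in mock and 10.28 in wild-type cells, with 10.85 in clone 7 and 10.76 in clone 8, so that wild-type lay between mock and the clones as it did for EMC10. In EDIL3 wild-type lay near mock, at 11.19 and 10.99, with 12.44 in clone 7 and 12.32 in clone 8. ZNF22 was dim in mock, at 6.42, under the lower quartile of all values of 7.05. Its wild-type mean of 7.82 lay near those of clone 7 and clone 8, at 8.00 and 8.08, unlike in EMC10. The genes were picked by this likeness, so that no test of it was made.

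**Figure D5:**
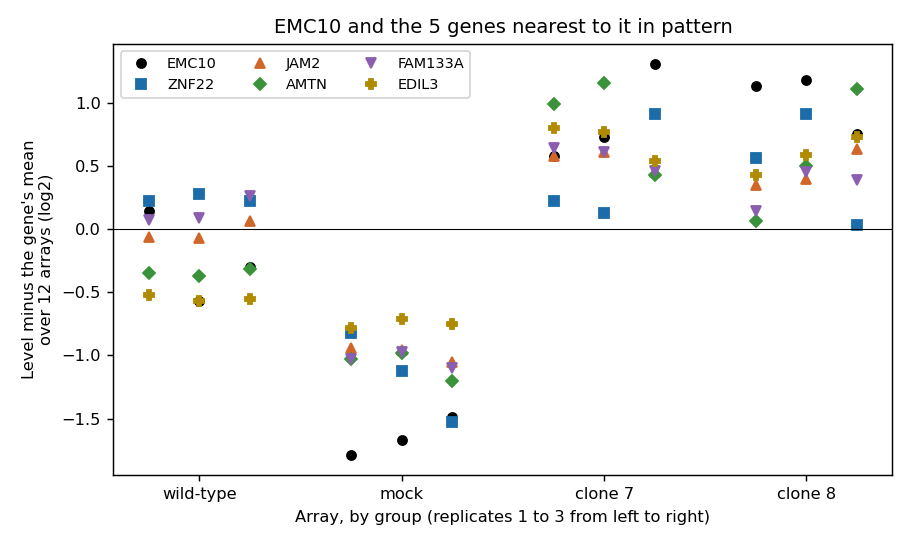
Log2 level minus the gene's mean over the 12 arrays (y axis) for EMC10 and the 5 genes nearest to it, array by array within each group (x axis). All 6 genes have their lowest arrays in mock, and EMC10 reaches both the lowest value, -1.79 in mock, and the highest, 1.31 in clone 7.

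The genes beside EMC10 on chromosome 19 were NAPSA, POLD1, SPIB, MYBPC2 and GARIN5A on 1 side and JOSD2, ASPDH, LRRC4B, SYT3 and SHANK1 on the other. Between both clones and mock they ran from 0.04 to 0.34 (log2, median 0.11), and 1 of the 10 passed, SYT3 (log2 0.34 ± 0.07 SE, limma adjusted p = 0.0145), which encodes a synaptotagmin of vesicle release, beside 6.38% of all genes. At an unadjusted p under 0.05 there were 4 of the 10, GARIN5A, JOSD2, SYT3 and SHANK1, beside 20.0% of all genes. SYT3 passed under 19 of 21 settings, the exceptions being without mock replicate 2 (limma adjusted p = 0.099) and without mock replicate 3 (limma adjusted p = 0.0734). Between mock and wild-type, none of the 10 passed, 2 had an unadjusted p under 0.05 (12.1% of all genes), and they ran from -0.41 to 0.04. Between both clones and wild-type none passed, and 0 had an unadjusted p under 0.05 (25.1% of all genes).

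The array medians differed by less than 0.1 on the log2 scale, and all 10 members were above the lower quartile on every array. Of 8 astroglial and glioma markers, 6 were above it on all arrays, with VIM at 13.37 to 13.74 and CD44 at 13.16 to 13.65, while S100B and AQP4 were under it on all arrays. The summed log2 level of the 8 was highest in wild-type arrays, at 74.51 to 75.56, with 74.27 to 74.73 in mock, 73.31 to 73.63 in clone 7 and 72.99 to 74.21 in clone 8, which is not the order of EMC10. NES had means of 8.86 in clone 7 and 8.98 in clone 8, against 9.65 in mock and 10.08 in wild-type cells. SOX2 had 8.33 and 8.29 in the clones, 8.63 in mock and 8.90 in wild-type cells, while GFAP had 8.74 and 8.79 in the clones and 8.65 in each control. The part of these differences in the values of the members was not tested.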

How the data were processed

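The values deposited by the authors are log2 levels for each probe set of GeneChip Human Gene 1.0 ST arrays. Partek is named in the submitters' processing notes without a version, while how probes were summarised and normalised is not given in these sources. Of 33297 probe sets, 19460 had 1 gene symbol, 1754 had several and 12083 had none listed, and 19429 of the single ones matched RefSeq by Entrez number. The probe set with the highest mean was kept for each of 18417 genes. Group means of the 4 groups were fitted per gene with limma 3.58.1 in R 4.3.3, with Benjamini-Hochberg adjustment over all genes of a comparison. The fit was run on simulated data with independent arrays, which does not cover the deviations shared between the clones. A gene passed at an adjusted p under 0.05. Fold changes and intervals are from this fit. Groups came from the sample titles. One label gives the line as A712 where the titles give A172. Pairing of the arrays by replicate number was not seen. Of 18 same-numbered pairs, 4 had correlated deviations over 0.1, in a range of -0.832 to 0.446. The 36 unlike-numbered pairs ran from -0.553 to 0.734. With 3 arrays a group these values cannot show that there was no pairing. Between the clones, unlike-numbered arrays had correlated deviations over all genes. Replicates 1 and 2 of clone 7 went with replicate 3 of clone 8 (0.734 and 0.691). Replicate 3 of clone 7 went with replicates 1 and 2 of clone 8 (0.552 and 0.446) and against replicate 3 of clone 8 (-0.832). The labels do not say why, and the cause was not tested. The labels give no batch, so that none was tested. Named were the 10 members, the genes of each list with the smallest p, the 5 nearest in pattern and the neighbours that passed; the other genes and motifs were chosen after their values were seen. The members and lists were chosen with earlier results of these data known. Precision is limited by having 3 arrays a group, as arrays have no depth of reads.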

Additional observations from a re-analysis of the deposited data

How the results depend on the processing

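The alternatives were equal array medians, quantile normalization, leaving out dim genes, averaging the probe sets of a gene, testing all probe sets, a trended and robust prior, fitting only the compared groups, array quality weights, the replicate number as a block, and leaving out each array in turn. EMC10 kept its direction and its call under all 21 in each comparison other than that of the clones with each other, where it passed under none. Its difference between both clones and mock was 2.49 to 2.60 under the processing alternatives and 2.49 to 2.68 without single arrays, and that between mock and wild-type was -1.40 to -1.37 and -1.57 to -1.21. With the replicate block, 754 genes passed between both clones and mock, in place of 1175, 500 in place of 938 between clone 8 and mock, 330 in place of 579 between clone 7 and mock, and 259 in place of 413 between mock and wild-type. The share of all genes that passed also moved with other settings. The count between both clones and mock ran from 675 (compared groups alone) to 3545 (array weights), and from 367 (without mock replicate 2) to 2111 (without clone 8 replicate 2). Between clone 8 and mock it ran from 149 (compared groups alone) to 1090 (trended and robust prior), and from 222 (without mock replicate 2) to 3353 (without clone 8 replicate 2). Between mock and wild-type it ran from 259 (replicate block) to 2399 (array weights), and from 165 (without mock replicate 2) to 616 (without clone 8 replicate 3).

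The count of the other 9 subunits that passed between both clones and mock became 1 with array quality weights and lay at 0 to 1 without single arrays. Both times it was EMC6, with array weights (log2 -0.31, limma adjusted p = 0.00701) and without clone 8 replicate 3 (log2 -0.39, limma adjusted p = 0.00671). Between clone 8 and mock the count became 0 with all probe sets, with the compared groups alone and with the replicate block, and lay at 0 to 1 without single arrays. Between mock and wild-type it became 1 with array weights, EMC4 (log2 0.13, limma adjusted p = 0.0451), and between clone 8 and wild-type it lay at 0 to 1 without single arrays, with EMC6 passing without clone 8 replicate 3 (log2 -0.42, limma adjusted p = 0.0117). Of the genes of the insertion lists, 4 passed between both clones and mock. The count became 2 with all probe sets, with the compared groups alone and with the replicate block, 9 with array weights, and 2 to 6 without single arrays (2 without any 1 of the mock arrays, clone 7 replicate 1 or clone 7 replicate 2). Between mock and wild-type it was 0, and became 1 with quantile normalization, 1 with dim genes left out, 2 with the trended and robust prior, 4 with the compared groups alone, 4 with array weights, and 0 to 1 without single arrays (1 without any 1 of the clone 8 arrays). The cause of these moves was not tested.

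No difference that passed turned its direction. Of 80 differences of single members, 21 turned at least once, all of them 0.06 or less in size on the log2 scale, with limma adjusted p of 0.699 or more where they turned. With quantile normalization, clone 8 lay 0.02 from mock in EMC1, 0.01 in EMC3 and 0.02 in EMC7, 0.03 from clone 7 in EMC1 and 0.02 in EMC8, and 0.04 from wild-type in MMGT1. With array weights, clone 7 lay -0.01 from mock in EMC9, 0.01 from wild-type in EMC6 and -0.03 in EMC7, and both clones lay -0.02 from wild-type in MMGT1. Without single arrays, both clones against mock ran from -0.02 to 0.07 in EMC2 and -0.09 to 0.08 in EMC9, and clone 7 against mock from -0.07 to 0.01 in EMC1 and -0.07 to 0.11 in EMC9. Clone 8 against mock ran from -0.17 to 0.02 in EMC2, -0.09 to 0.03 in EMC3, -0.07 to 0.02 in EMC7 and -0.12 to 0.06 in EMC9, and clone 8 against clone 7 from -0.04 to 0.02 in EMC1 and -0.03 to 0.03 in EMC8. Both clones against wild-type ran from -0.02 to 0.07 in EMC2, -0.03 to 0.09 in MMGT1, -0.06 to 0.03 in EMC7 and -0.04 to 0.07 in EMC8. Clone 7 against wild-type ran from -0.09 to 0.03 in EMC6 and -0.04 to 0.08 in EMC8, and clone 8 against wild-type from -0.17 to 0.02 in EMC2, -0.08 to 0.06 in MMGT1 and -0.04 to 0.07 in EMC8. EMC3 between both clones and mock and EMC2 between mock and wild-type were at 0.00, with no direction.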
